A study of Mus musculus with 4 samples.

Results

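The mitosis genes are 40 genes whose products carry a cell from late G2 phase through chromosome segregation and cytokinesis. They were listed by name. All 40 were among the 27998 genes counted, and each had at least 1 UMI (unique molecular identifier, the tag of 1 captured transcript) in every library. Cells were sorted as CD31+/CD45- from hearts of C57Bl6J mice at embryonic day 12 (E12), embryonic day 15 (E15), postnatal day 2 (P2) and 8 weeks of age (adult). Each stage was 1 library of pooled hearts, from 37, 48, 21 and 6 animals, with no genetic change and no treatment, and the tissue digestion was adapted to each stage. After freezing and thawing, E12 and E15 cells went through a kit that removed dead cells. P2 and adult cells were instead sorted again for live cells. Stage, library, digestion and this handling therefore cannot be told apart, and with 1 library each the stages could not be tested against each other.

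Dividing cells make these transcripts in a narrow window. Cdk1 with cyclins A and B starts mitosis, kinesins and kinetochore proteins attach chromosomes to the spindle, the spindle checkpoint holds anaphase back until attachment is complete, and the anaphase-promoting complex then destroys the cyclins. Most of the genes are silenced outside the cycle by the DREAM complex and switched on by its MuvB core with B-Myb and FoxM1, which act through an element called CHR and through CCAAT boxes bound by NF-Y. In the growing heart, endothelial cells divide while the endocardium lines the chambers and the coronary plexus spreads through the wall, and adult cardiac endothelium divides rarely.

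Promoter windows of 5 members are shown because these genes span the range of concentration in mitosis-rich cells described later, and because the 3 elements named here can be read in them. The windows reach from 250 bases before to 50 bases after the RefSeq transcription start (GRCm38.p6), are printed 5′ to 3′ on the strand of the gene, and have in capitals every match on either strand to CHR (TTTGAA), the CCAAT box (CCAAT) or an E2F-like element (TTTNNCGC). Ccnb2 (minus strand, chr9:70421505-70421804) and Cdk1 (minus strand, chr10:69352863-69353162) are mitotic drivers, Ube2c (plus strand, chr2:164769679-164769978) is the ubiquitin-conjugating enzyme of the anaphase-promoting complex, and Cks1b (minus strand, chr3:89418242-89418541) and Bub3 (plus strand, chr7:131560120-131560419) were the members least confined to mitosis-rich cells beside Smc4.
Ccnb2: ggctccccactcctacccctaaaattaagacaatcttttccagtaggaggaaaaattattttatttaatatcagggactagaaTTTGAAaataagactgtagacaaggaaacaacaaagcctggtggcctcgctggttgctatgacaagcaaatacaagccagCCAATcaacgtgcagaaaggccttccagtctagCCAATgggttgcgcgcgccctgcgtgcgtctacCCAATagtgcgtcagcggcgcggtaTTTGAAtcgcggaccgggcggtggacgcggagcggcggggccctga
Cdk1: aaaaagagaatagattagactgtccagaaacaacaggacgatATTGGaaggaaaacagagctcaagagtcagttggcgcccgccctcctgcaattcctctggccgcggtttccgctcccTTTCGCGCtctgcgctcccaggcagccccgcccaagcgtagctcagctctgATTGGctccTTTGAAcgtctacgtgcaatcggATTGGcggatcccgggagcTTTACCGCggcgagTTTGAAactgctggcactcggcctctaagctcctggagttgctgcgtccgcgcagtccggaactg
Ube2c: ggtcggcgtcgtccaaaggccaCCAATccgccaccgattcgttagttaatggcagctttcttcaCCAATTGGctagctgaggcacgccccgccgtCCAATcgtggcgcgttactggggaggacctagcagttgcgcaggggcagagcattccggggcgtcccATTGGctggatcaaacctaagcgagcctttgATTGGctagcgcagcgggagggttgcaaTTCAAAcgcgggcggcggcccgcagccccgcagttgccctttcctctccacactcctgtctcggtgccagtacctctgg
Cks1b: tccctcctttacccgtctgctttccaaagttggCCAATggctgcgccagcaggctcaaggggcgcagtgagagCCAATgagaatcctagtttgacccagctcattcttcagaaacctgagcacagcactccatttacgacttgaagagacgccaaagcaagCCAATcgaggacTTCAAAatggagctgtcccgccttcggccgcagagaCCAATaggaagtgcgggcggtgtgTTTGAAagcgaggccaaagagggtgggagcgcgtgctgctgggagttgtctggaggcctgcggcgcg
Bub3: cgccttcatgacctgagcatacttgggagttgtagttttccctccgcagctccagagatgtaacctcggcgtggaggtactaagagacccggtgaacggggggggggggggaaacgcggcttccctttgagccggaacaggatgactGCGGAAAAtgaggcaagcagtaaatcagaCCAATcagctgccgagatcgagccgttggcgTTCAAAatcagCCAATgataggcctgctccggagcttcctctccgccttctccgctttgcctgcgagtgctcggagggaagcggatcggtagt
Ccnb2 held CHR matches at -167 and 5 and CCAAT boxes at -87, -54 and -21, counted from the start. Cdk1 held CHR matches at -71 and -15 and E2F-like matches at -131 and -29. Ube2c held 1 CHR match, at -29, and 6 CCAAT boxes, of which those at -186 and -183 overlap on opposite strands.

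Of the 40 members, 35 had a window in the RefSeq table, and 26 of the 35 (74.3%) held a CHR match, against 20.2% of all 27025 genes with a window. The gap was wider near the start: 22 members (62.9%) had a CHR match within 50 bases of it, against 5.72% of all genes. A CCAAT box was in 26 of the members (74.3%) and 41.1% of all genes, and CHR together with CCAAT in 22 (62.9%) and 7.97%. The E2F-like letters were in 3 members (8.57%), Bub3, Cdk1 and Ckap2, against 5.93% of all genes. For these 2 elements genes of DNA replication had the opposite pattern, with CHR in 3 of 24 (12.5%) and the E2F-like letters in 12 of 24 (50%). A CCAAT box was in 15 of the 24 (62.5%), also more often than in all genes. The members with a window but no CHR match were Birc5, Bub1, Ccnb1, Cenpe, Cks2, Knstrn, Nuf2, Nusap1 and Tacc3. Ccna2, Aurkb, Pbk, Tpx2 and Smc4 had no window.

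**Figure D1:**
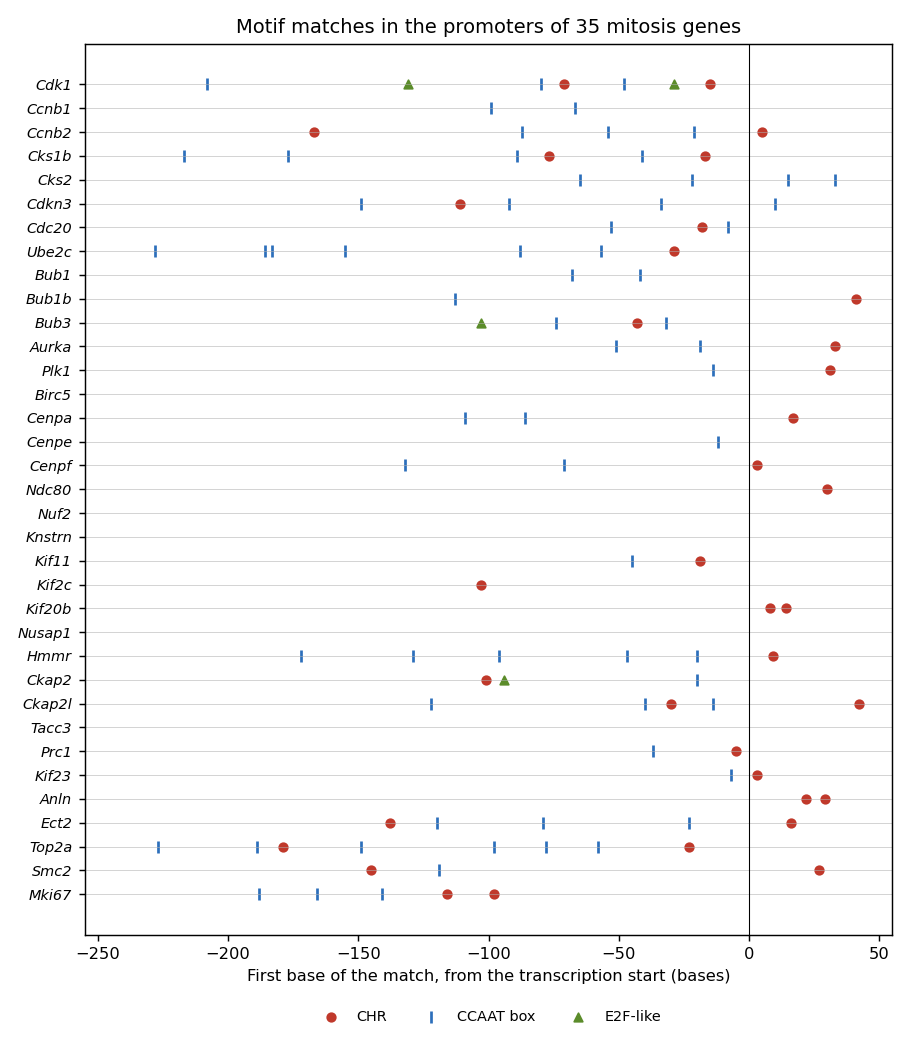
Position of each CHR, CCAAT box and E2F-like match (marks) in the promoter windows of the members that had one (rows), in bases from the transcription start (horizontal axis). CHR matches gather near the start, where 22 of 35 members had one within 50 bases.

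The E12, E15, P2 and adult libraries held 5732, 6062, 5884 and 4242 cells, with medians of 1241, 1013, 4531.5 and 1510 UMIs per cell. Levels are given as CPM, the UMIs of a gene or of all 40 genes per 1000000 UMIs of the cells summed. A ratio comes with its exact 95% interval, which covers counting error only and takes UMIs as independent although those of mitosis genes gather in few cells. Coronary cells had at least 2 UMIs of Fabp4, Cldn5 and Aplnr and more of these than of Npr3 and Tmem108, and endocardial cells had more of the latter pair. There were 113, 1254, 4596 and 4077 coronary and 1716, 2115, 1082 and 75 endocardial cells in order of stage. The markers Pecam1, Cdh5 and Egfl7 were all at 0 UMIs in 596 of the 1716 endocardial cells at E12. The same held for 545 of the 2115 endocardial and 181 of the 1254 coronary cells at E15. The class rules thus took in cells with no endothelial UMI, and whether these cells lacked the transcripts was not tested. The adult endocardial sum rested on 120 UMIs, of which 1 cell held 46.

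By the class rule used here, coronary cells held similar levels of the mitosis genes from E12 to P2 and much less of them in the adult. The 40 genes summed to 2885 CPM at E12 (2676 to 3107), then to 2907 at E15 (2826 to 2990), 2991 at P2 (2969 to 3013) and, in adult cells, 473 (457 to 489). The ratio of E15 to E12 was 1.01 (0.931 to 1.09) and that of P2 to E15 was 1.03 (0.999 to 1.06), so both intervals held 1. Both ratios crossed 1 with the choice of cells and genes, so no order of these stages is firm. The adult level was 6.33-fold below that of P2 (6.11 to 6.55), and 8.81-fold below it when Bub3 and Smc4 were left out of the sum. Endocardial cells were lower at each later stage, with 2527, 1716, 1151 and 575 CPM from E12 to the adult. Those ratios were 0.679 (0.653 to 0.706), 0.671 (0.645 to 0.698) and 0.499 (0.413 to 0.598), and the last became 0.278 without Bub3 and Smc4. Without the 1 cell with 46 UMIs the adult endocardial level was 367 CPM. Few cells also carried the P2 endocardial level, since 10 of 1082 cells held 36.4% of its mitosis UMIs. Among the P2 coronary cells 10 of 4596 held 3.92%, but these 10 were a smaller part of their class.

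**Figure D2:**
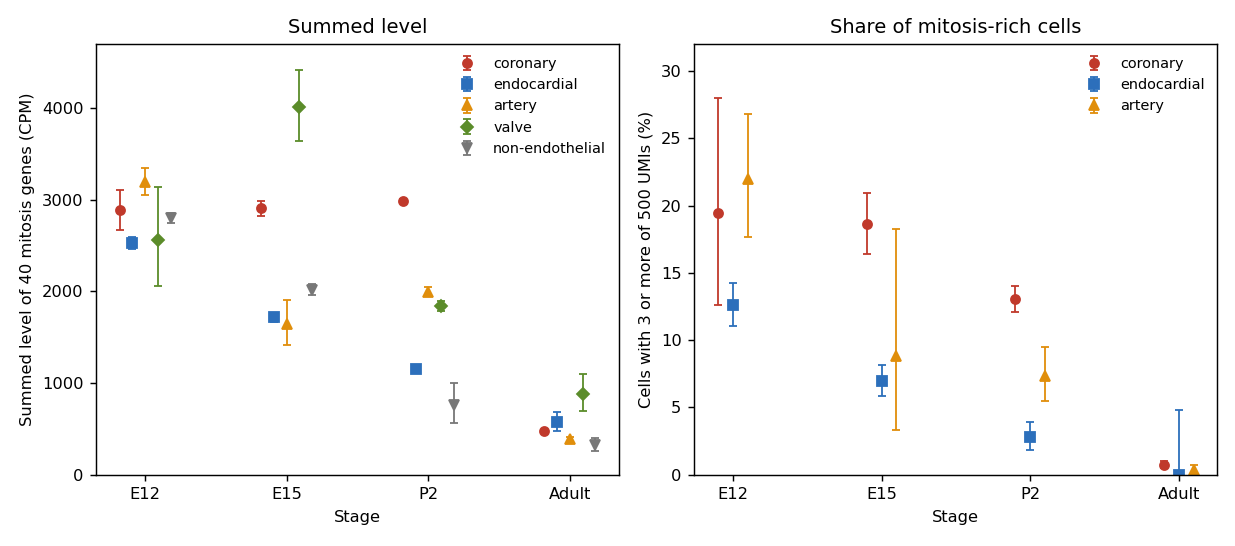
Left, summed level of the 40 mitosis genes in CPM by stage and cell class; right, percent of cells with at least 3 mitosis UMIs among 500 UMIs drawn from each cell. Points are the 1 library per stage and bars are exact 95% intervals for counting error only; coronary points lie between 2885 and 2991 CPM up to P2 and at 473 CPM in the adult, while endocardial points are lower at each later stage.

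Gene by gene, few members were more than 2-fold apart between the embryonic and neonatal coronary stages, no larger a share than among all genes. In the adult nearly all were lower. A member was counted when its CPM differed more than 2-fold, among genes with a mean of at least 5 CPM over the stages, and the same count over all such genes is the background. From E12 to E15, Ccnb1, Cdc20 and Plk1 were more than 2-fold higher (3 of 40 members, background 11.1%) and Kif11 more than 2-fold lower (1 of 40, background 8.84%). Both shares lay below their background. At E12 these genes rested on 7, 6, 2 and 7 UMIs in that order, and of them only Ccnb1 had an interval that left out 1. From E15 to P2, Pbk, Ndc80 and Kif20b were higher (3 of 40, background 15.9%) and none was lower (background 4.27%). The median ratio at that step was 1.18 for the members and 1.26 for all genes tested. In the adult, 39 of 40 members were more than 2-fold below P2 (background 11%), none was above it (background 8.13%), and the exception was Bub3. The median member ratio of adult to P2 was 0.111, while that of all genes tested was 0.987. In endocardial cells, where 39 members were tested, 6 were more than 2-fold lower at E15 than at E12 (background 3.62%), 13 lower at P2 than at E15 (background 5.38%) and 11 lower in the adult than at P2 (background 11.9%). With classes taken from thinned counts, 11 coronary members were lower at E15 than at E12 and no endocardial member was lower in the adult than at P2. These counts thus depended on the class rule, whereas 38 coronary members were still lower in the adult. The share over all genes was not counted with thinned classes, so these 3 counts have no background. Of the 40 members, 16 had no UMI in the 75 adult endocardial cells, where 3 counts would be 14.4 CPM. None was more than 2-fold higher at any of these 3 steps (backgrounds 4.6%, 12% and 11.8%).

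**Figure D3:**
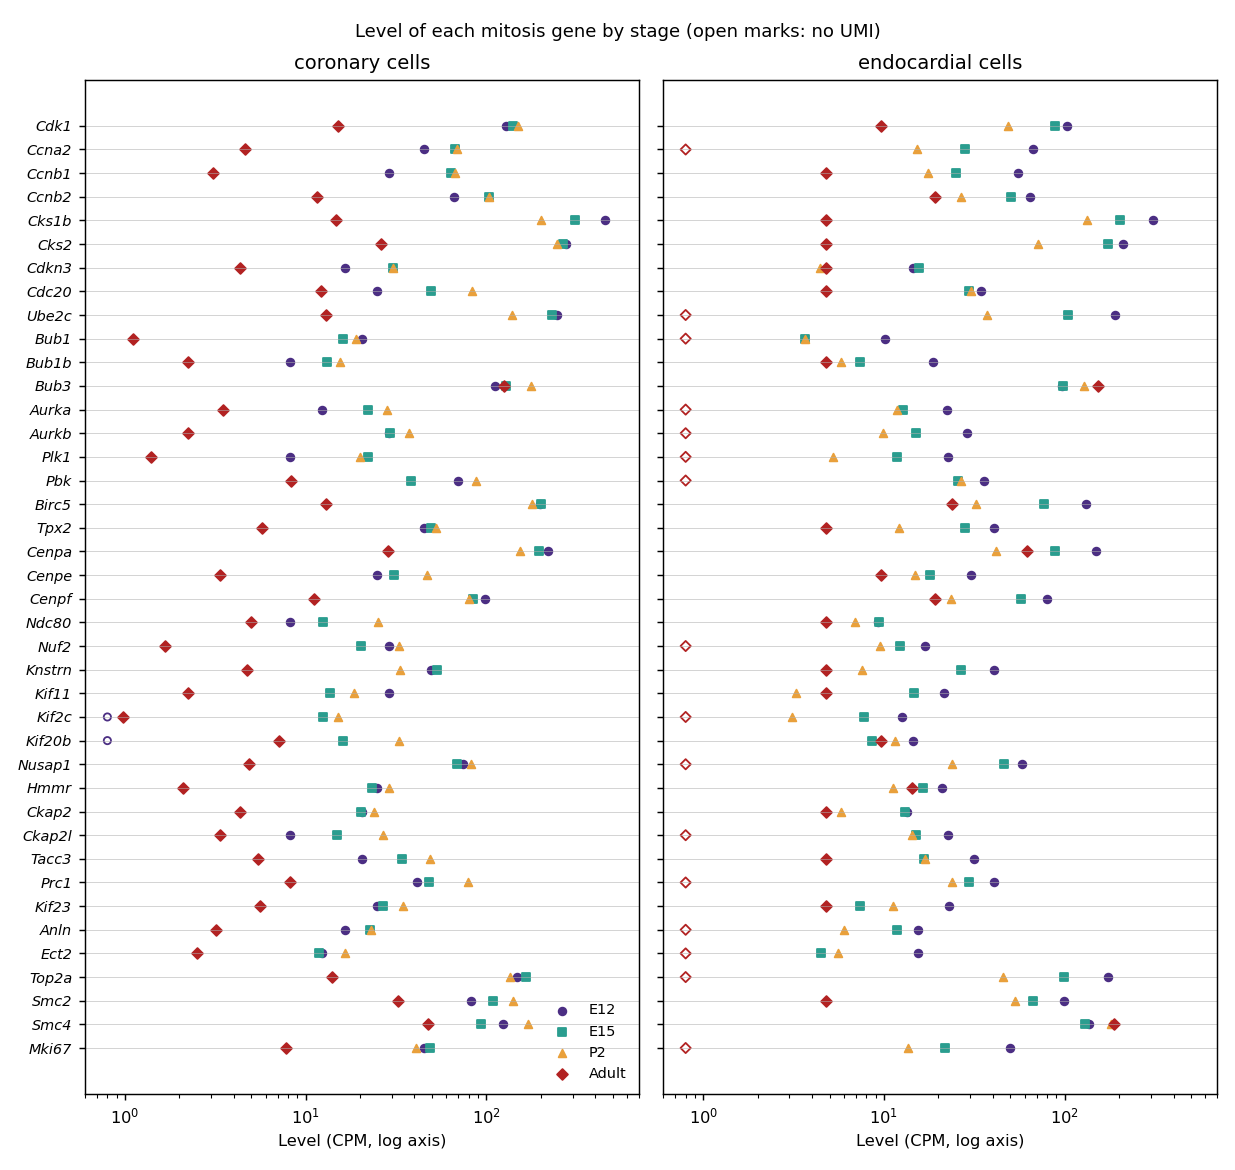
Level of each of the 40 members (rows) in CPM on a log axis, in coronary and endocardial cells, with 1 mark per stage and open marks where no UMI was counted. In coronary cells the adult marks lie left of the P2 marks for every member and come closest for Bub3, at 125 and 177 CPM.

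The cyclin and Cdk1 group made up 35.1% of the coronary mitosis UMIs at E12 and 16.8% in the adult. Cdk1, the kinase that drives entry into mitosis, stood at 128 CPM (E12), 141 (E15), 150 (P2) and 15.02 (adult), and the last was 10.0-fold below P2 (8.26 to 12.2). Ccnb1, a B-type cyclin that activates it, was 28.8, 63.7, 66.9 and 3.06 CPM, and its adult level was 21.9-fold below P2 (14.4 to 35.01), the widest gap of the 40. Cks1b, a small Cdk-binding subunit, was lower at each later stage, with 453, 311, 202 and 14.7 CPM. Reads of Cks1b can be shared with its retrogene copy Cks1brt, which had 320, 218, 259 and 9 UMIs in all cells of the 4 libraries where Cks1b had 2865, 1725, 5547 and 115, so its level and its differences between stages are uncertain. Cks2, its paralogue, was 276, 266, 245 and 26.0 CPM. Ccna2 was 4.59 CPM in the adult, Ccnb2 11.5 and Cdkn3, a phosphatase acting on Cdks, 4.31, between 7.04-fold and 14.99-fold below P2.

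Both genes of protein destruction at anaphase were lower in the adult, but they differed before it. Ube2c was 247, 230, 138 and 12.9 CPM, and its interval from E15 to P2 lay below 1. Cdc20, which activates the anaphase-promoting complex, was 24.7, 49.4, 83.7 and 12.1 CPM, and its interval from E15 to P2 lay above 1. At that step 12 of 40 members had an interval above 1 (background 39.4%) and 6 of 40 below 1 (background 12.2%), and the latter were Ube2c, Cks1b, Birc5, Cenpa, Knstrn and Top2a.

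The spindle checkpoint split into Bub3 and the others. Bub1 and Bub1b, the checkpoint kinase and its pseudokinase partner, were 1.11 and 2.23 CPM in adult coronary cells, 17.1-fold (8.60 to 39.9) and 6.94-fold (4.21 to 12.3) below P2. Bub3, the WD-repeat protein that binds both, was 111, 128, 177 and 125 CPM, 1.41-fold lower in the adult (1.32 to 1.52). Bub3 was 3.85% of the summed coronary mitosis UMIs at E12 and 26.5% in the adult, where it led the 40 genes. In endocardial cells it was 96.6, 98.1, 129 and 153 CPM.

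The mitotic kinases and their partners summed to 362, 361, 404 and 34.1 CPM. Birc5, the chromosomal passenger subunit that brings Aurkb to centromeres, was 198, 201, 178 and 12.9 CPM, and Aurkb was 28.8, 29.2, 37.3 and 2.23. Pbk, a kinase active in mitosis, was 70.0, 38.1, 88.0 and 8.35 CPM, and its interval lay below 1 from E12 to E15 and above 1 from E15 to P2. Plk1 rested on 2 UMIs at E12 (8.23 CPM) and 10 in the adult (1.39 CPM), which limits what its ratios can show. Aurka and its activator Tpx2 were 3.48 and 5.70 CPM in the adult, 8.14-fold and 9.24-fold below P2.

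Among centromere and kinetochore genes, the adult deficit ranged from 19.6-fold to 5.05-fold. Nuf2 and Ndc80 encode partners in the complex that holds microtubules, and they marked the ends of that range, at 32.7 against 1.67 CPM and 25.3 against 5.01 CPM at P2 and in the adult. Cenpa, the histone H3 variant of centromeres, was 218, 196, 153 and 28.4 CPM, 5.41-fold lower in the adult (4.69 to 6.25). Cenpe, Cenpf and Knstrn were 3.34, 11.1 and 4.73 CPM in the adult, between 7.02-fold and 14.0-fold below P2.

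Motors and spindle genes summed to 177, 204, 277 and 30.3 CPM, and genes of cytokinesis to 94.7, 110, 153 and 19.5. Nusap1, which bundles spindle microtubules, was 74.1, 69.0, 81.8 and 4.87 CPM, 16.8-fold lower in the adult (12.04 to 24.2). Kif20b, a kinesin of late mitosis, had no UMI in the E12 coronary cells, where 3 counts would be 12.3 CPM, and 16.1, 32.9 and 7.09 CPM later. Kif2c, a microtubule depolymerase, also had none at E12 and then 12.5, 15.1 and 0.974 CPM. Prc1, which crosslinks the midzone at cytokinesis, was 41.2, 48.2, 79.4 and 8.21 CPM. The other 8 members of these groups (Kif11, Hmmr, Ckap2, Ckap2l, Tacc3, Kif23, Anln and Ect2) were between 5.54-fold and 13.8-fold lower in the adult than at P2.

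Genes of chromosome structure kept the most of their level in the adult after the checkpoint group, with 399, 417, 485 and 102 CPM. Smc2 and Smc4, the ATPase pair of condensin, were 32.6 and 47.4 CPM in the adult, 4.33-fold (3.79 to 4.96) and 3.56-fold (3.19 to 3.99) below P2. Top2a, the topoisomerase that untangles chromatids, was 148, 166, 134 and 13.9 CPM, 9.66-fold lower in the adult (7.91 to 11.9). Mki67, the Ki-67 protein that coats mitotic chromosomes, was 45.3, 48.8, 40.6 and 7.79 CPM in coronary cells, and 50.1, 21.7 and 13.5 CPM in endocardial cells up to P2 with no UMI in the adult. In endocardial cells Smc4 was 136, 129, 180 and 187 CPM, so its interval from E15 to P2 lay above 1 while Ube2c was 190, 105 and 37.1 CPM and Top2a 174, 98.5 and 45.7 CPM up to P2. Bub3 and Smc4 were the 2 endocardial members whose interval lay above 1 at that step (background 36.3%), against 22 of 39 whose interval lay below 1 (background 14.5%).

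The split between coronary and endocardial cells widened with stage up to P2. At E12 the coronary level was 1.14 times the endocardial (1.05 to 1.23), at E15 it was 1.69 times (1.63 to 1.77) and at P2 2.60 times (2.53 to 2.67). With classes taken from thinned counts instead of raw UMIs these ratios were 1.76, 2.14 and 2.67, so the E12 value depended on the rule and the widening was smaller. Adult coronary cells stood at 0.822 times the endocardial level (0.685 to 0.995). The adult value turned to 1.28 without Bub3 and Smc4, to 1.28 with thinned classes and to 1.52 with 1 class per cell. It was 1.00 within the upper UMI, gene and mitochondrial limits of the study's methods, so its direction depended on these choices. Members more than 2-fold higher in coronary cells numbered 1 of 40 at E12 (background 9.25%), then 12 of 40 at E15 (background 5.9%) and 36 of 40 by P2 (background 8%), with 4 of the 19 tested among adult cells (background 13.3%). Members more than 2-fold lower in coronary cells numbered 3 of 40 at E12 (background 16.2%), none at E15 or P2 (backgrounds 11.6% and 7.84%) and 4 of 19 in the adult (background 17.5%). At P2 the exceptions were Bub3, Ckap2l, Cks1b and Smc4. Cdkn3 stood highest, at 6.84 times its endocardial level, followed by Kif11 at 5.65, Birc5 at 5.53 and Bub1 at 5.19. Smc4 was the 1 member with no coronary excess at P2, with a ratio of 0.939. The median depth of the 2 classes was nearly equal at P2 (4562 and 4532 UMIs), but at E12 it was 1997 against 1276.5 UMIs.

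Cells picked by artery genes had at least 3 UMIs of Cxcl12, Glul, Alpl and Nebl. From E15 on they held less of the mitosis genes than coronary cells outside the rule, below called other coronary cells. Their level was 1643, 1999 and 387 CPM at these stages, which was 0.560 (0.479 to 0.650), 0.630 (0.615 to 0.645) and 0.686 (0.641 to 0.734) times that of coronary cells outside the rule. With classes taken from thinned counts instead of raw UMIs the E15 and P2 ratios were 0.197 (0.0239 to 0.714) and 0.219 (0.159 to 0.296), so the direction held but the size depended on the rule. At P2 all 40 members were lower in these cells (background 49.4%), and the interval lay below 1 for 38 of 40 (background 18%). In the adult 19 of the 21 members tested were lower (background 49%), and the others were Bub3 and Pbk. At E12 the rule did not mark arterial endothelium: 257 of its 332 cells had no endothelial UMI and the mesenchyme and fibroblast markers summed to 3577 CPM in them, so their ratio of 1.11 is not one of arterial endothelium. At E15, 41 of the 69 cells likewise had no endothelial UMI and only 19 were coronary by rule. Mesenchyme and fibroblast markers summed to 6610 CPM in the 69, so the E15 ratio is not one of arterial endothelium either. Among the 19 cells the ratio was 0.481 (0.352 to 0.643).

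Cells picked by valve genes (at least 2 UMIs of Cldn11, Enpp2 and Aqp8) had 2558, 4014, 1842 and 880 CPM from 21, 65, 427 and 22 cells. Against other endocardial cells the ratios in the same order were 1.01 (0.813 to 1.25), 2.34 (2.11 to 2.59), 1.83 (1.75 to 1.90) and 2.36 (1.69 to 3.31). The class rules use raw UMIs, and with classes taken from thinned counts the P2 ratio turned to 0.781 (0.496 to 1.18) and the adult to 0, while E15 was 3.31. The adult ratio was 0.533 within the study's upper limits, so a higher level in valve-rule cells at P2 and in the adult depended on these choices. Of the members tested, 24 of 37 were more than 2-fold higher at E15 (background 16.7%) and 31 of 39 at P2 (background 4.61%). The adult value rested on 80 UMIs, of which 1 cell held 57.5%, and was 406 CPM without that cell. At P2, 235 of the 427 cells were also coronary by rule and 145 endocardial. The 10 cells with the most held 77.0% of the valve mitosis UMIs at E15 and 44.7% at P2.

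Cells with none of Pecam1, Cdh5 and Egfl7 made up 2995 of the E12 and 1867 of the E15 cells, and they held mitosis genes at about the level of the endothelial cells. Their sum was 2799 CPM at E12 and 2018 at E15, 1.10 (1.07 to 1.13) and 0.941 (0.907 to 0.975) times the endothelial. By the class rules 596 of them were endocardial and 7 coronary at E12, and 545 and 181 at E15. The ratios are therefore not those of cells outside the endothelium alone. Among cells without endothelial UMIs, those with mesenchyme and fibroblast markers stood at 3277 CPM at E12 (1736 cells) and 2825 at E15 (695 cells). Those with fewer than 3 UMIs of every marker list stood at 1822 CPM at E12 (1117 cells) and 1272 at E15 (1115 cells). Among the marker lists at E12, the 45 cells with red cell markers were lowest, at 969 CPM (768 to 1206). The E15 cells with epicardial markers stood at 6356 CPM (5219 to 7668), from 11 cells.

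To compare shares of cells across libraries of unequal depth, every cell was thinned to 500 UMIs, and a cell with at least 3 mitosis UMIs among them is called mitosis-rich and one with 0 mitosis-free. Mitosis-rich cells made up 19.5% (12.6 to 28.0) of the E12, 18.6% (16.4 to 20.9) of the E15, 13.0% (12.1 to 14.0) of the P2 and 0.736% (0.497 to 1.05) of the adult coronary cells. Without thinning the same cut gave 62.8%, 34.2%, 52.7% and 3.24%, in another order than the thinned shares. The order of E12, E15 and P2 also depended on the cut, since 3.54%, 7.66% and 8.38% of their coronary cells had at least 5 of 500 UMIs. Endocardial shares were 12.6%, 6.95% and 2.77% up to P2, and 0 of 75 cells in the adult, which allows a share of up to 4% by a floor of 3 counts and 4.7995% by the exact upper limit. Cells of the artery rule were at 8.82%, 7.31% and 0.320% from E15 on, and those of the valve rule at 23.1% at E15 and 5.85% at P2. Among the 45 E12 cells with red cell markers 2.22% were mitosis-rich, with a median of 1817 UMIs, against 15.7% of all E12 cells without endothelial UMIs, whose median was 1217. E12 barcodes under 100 UMIs, which were not taken as cells, stood at 2512 CPM, a mean of 1.26 mitosis UMIs in 500. How much such UMIs add to the E12 shares was not tested. In E12 coronary cells the ratio of mitosis-rich to mitosis-free cells for DNA replication genes was 0.954 (0.713 to 1.27). At P2 it was 3.60 (3.52 to 3.68). Whether the E12 share counts dividing cells as the P2 share does was not tested.

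Mitosis-rich endothelial cells had more UMIs than mitosis-free ones at every stage, and more of them would fall to an upper limit on UMIs. Their medians in order of stage were 1735 against 1195 UMIs, 1434 against 1020, 6727 against 4310 and 2732 against 1500.5. The upper UMI and gene limits of the study's methods were passed by 7.07%, 9.62%, 7.52% and 27.6% of mitosis-rich cells, and by 0.904%, 1.60%, 1.23% and 2.33% of mitosis-free cells. Within these limits and the mitochondrial limit of the study's methods, the coronary levels at P2 and in the adult were 2833 and 364 CPM. Doublets were not removed, and with cells scored as likely doublets left out the levels were 2958 CPM at P2 and 3065 at E15.

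The members differed in how far they were confined to mitosis-rich cells. Each member was compared between endothelial cells rich in the other 39 and cells free of them, so that it took no part in choosing the cells. At P2 the ratio ran from 3.09 for Bub3 (2.91 to 3.29), 4.74 for Smc4, 6.46 for Cks1b and 10.4 for Smc2 up to 69.3 for Kif11, 75.3 for Hmmr, 77.8 for Ube2c and 88.4 for Nusap1 (70.6 to 112), with a median of 41.8. The same 3 genes, Smc4, Bub3 and Cks1b, were lowest at E15, at 3.08, 3.32 and 4.57. Of all Bub3 UMIs, 48.1% at P2 and 87.2% in the adult lay in cells with no UMI of any other member after thinning. Such cells were most of the endothelial cells, 4038 of 5871 at P2 and up to 3826 of 4109 in the adult. These UMI shares therefore do not show a preference of Bub3 for mitosis-free cells. In the adult the ratio could be formed for 39 members and had a median of 252, from 28 or 29 mitosis-rich cells.

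**Figure D4:**
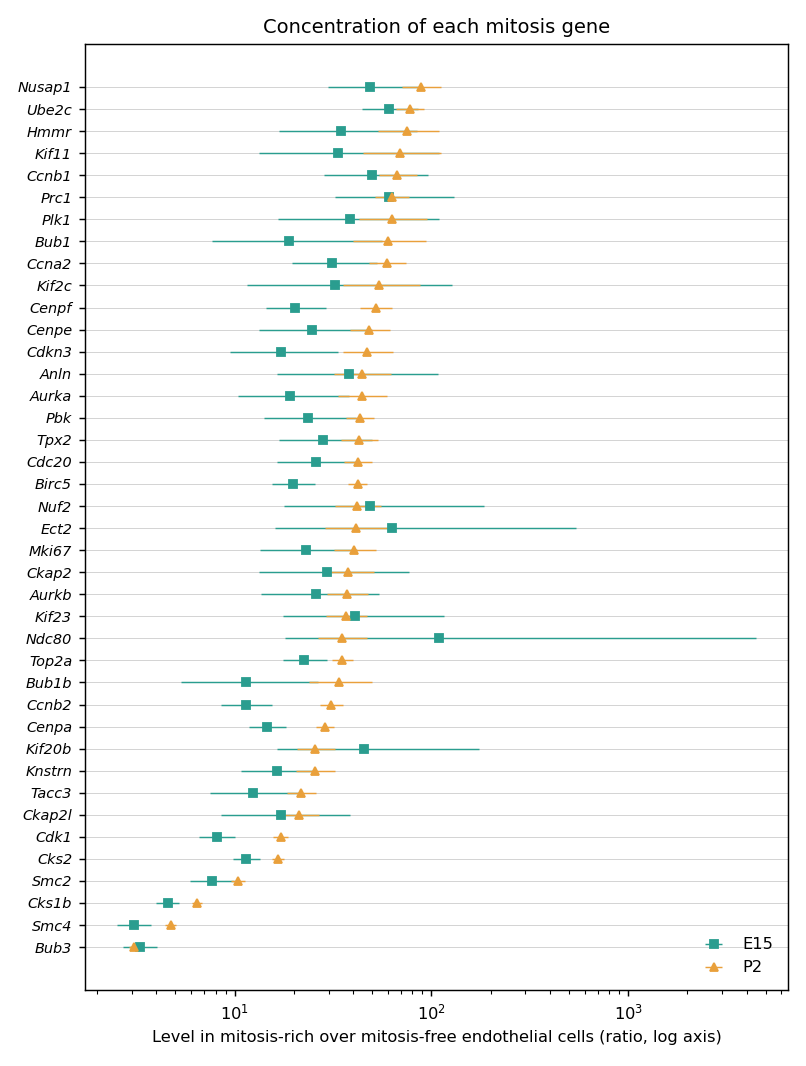
Ratio of each member's level in mitosis-rich to that in mitosis-free endothelial cells (log axis), with the member itself left out of the choice of cells, and exact 95% intervals for counting error only. Bub3, Smc4 and Cks1b lie at the low end with 3.09, 4.74 and 6.46 at P2, and Nusap1 at the high end with 88.4.

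The members also differed in how unevenly they lay between mitosis-rich cells and cells rich in replication UMIs only. At P2, 4.13% of coronary cells were rich in both mitosis and DNA replication UMIs, 8.90% in mitosis UMIs only and 6.09% in replication UMIs only. For the members the choice was stricter on the mitosis side. Endothelial cells rich in mitosis UMIs and with no replication UMI after thinning were set beside those rich in replication UMIs only. Each gene was again left out of the choice. The mitosis-rich cells had at least 3 UMIs of the other members and the replication-rich cells fewer. Ratios above 1 were therefore built into the choice of cells, and only the spread among members is described. Smc2, Pbk, Cks1b and Cdk1 were closest to even, at 1.77, 2.02, 2.05 and 2.198 times as high in the mitosis-rich cells. Cdc20, Cdkn3 and Cenpa stood at the other end, at 18.7, 19.8 and 20.0 times. In the adult the coronary sum of replication genes was 575 CPM, after 1960 CPM at P2.

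Genes outside the 40 that belong to the same machinery were also lower in adult coronary cells. Of the 39 other mitosis genes tested, 36 were more than 2-fold below P2 (background 11%), and so were 26 of 28 DNA replication genes and 10 of 16 genes of G1 cyclins, E2F and activators. The exceptions among the former, named after their values were seen, were Hjurp, Tubb4b and Pttg1, of which Pttg1, the securin gene, was more than 2-fold higher. Cell cycle inhibitors differed, with 2 of 10 below P2 and Cdkn1a, the p53 target p21, above it at 16.5, 33.3, 145 and 737 CPM. The 4 most counted of the other mitosis genes were H2afz, Hmgb2, Ube2s and Tubb4b, and Hmgb2 was 1021, 1033, 1124 and 188 CPM. Over 6859 genes outside the 40, among those with the highest lowest-of-3-stages ratio of mitosis-rich to mitosis-free endothelial cells were Kif22, Depdc1a, Mxd3, Hist1h1b, Spc25, Fam64a, Psrc1, Lockd and Tuba1c. That lowest ratio ran from 23.9 for Kif22, a chromosome-arm kinesin, to 12.5 for Tuba1c, a tubulin.

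At E15, P2 and in the adult, mitosis-rich coronary cells had more Cdkn2c RNA and less Cdkn1c, Ccnd2 and artery RNA than mitosis-free ones. At P2, 599 mitosis-rich cells were set beside 2883 mitosis-free ones. Cdkn2c, the Cdk4 and Cdk6 inhibitor p18, was 333 against 19.3 CPM, 17.2 times as high (15.1 to 19.7), and Hmgb2 was 8.57 times as high (8.31 to 8.83). Cdkn1c, the inhibitor p57, was 153 against 456 CPM (0.335, 0.309 to 0.363), and Ccnd2, a D-type cyclin, was 40.8 against 206 CPM (0.198, 0.169 to 0.231). The inhibitors Cdkn1a and Cdkn1b went the other way from Cdkn1c at P2, at 1.40 (1.29 to 1.53) and 1.71 (1.50 to 1.95) times as high, while at E15 both intervals held 1. Ccnd1, the paralogue of Ccnd2, was 346 against 343 CPM (1.01, 0.948 to 1.07). The artery markers summed to 143 against 628 CPM (0.228, 0.210 to 0.248), and Cxcl12 to 48.9 against 368 CPM, while Fabp4 was 1.02 times as high. At E15, with 221 and 604 cells, the ratios were 8.49 for Cdkn2c (5 UMIs in the mitosis-free cells), 0.702 for Cdkn1c, 0.380 for Ccnd2 and 0.437 for the artery markers. At E12, with 22 and 48 cells, Cdkn2c had 0 UMIs against 1. The E12 ratios of 0.852 for Cdkn1c, 1.18 for Ccnd2 and 0.392 for the artery markers all had intervals that held 1. The rule also set cells apart less at E12. There the DNA replication genes stood at 0.954 (0.713 to 1.27) and the other mitosis genes at 2.04 (1.76 to 2.37). These ratios were 1.95 and 4.16 at E15, and 3.60 and 7.01 at P2. The E12 ratios are thus not on a par with the later ones.

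The 30 mitosis-rich coronary cells of the adult, beside 3579 mitosis-free ones, included 1 cell with at least 3 macrophage UMIs. All 167 macrophage UMIs of the 30 cells were in it, since the other 29 had none, and the list stood at 73.4 CPM in the mitosis-free cells. Leaving out 4 mitosis-free cells with at least 3 macrophage UMIs brought it to 9.68 CPM in the remaining 3575. In the 29 cells Cdkn2c was 28.8 times as high as in these 3575 (20.7 to 39.6), Cdkn1c 0.0838 (0.0228 to 0.215), the artery markers 0.188 (0.134 to 0.257) and Fabp4 0.530 (0.498 to 0.563). There Cdkn1a was 0.653 (0.472 to 0.881) and Cdkn1b 0.622 (0.169 to 1.60).

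**Figure D5:**
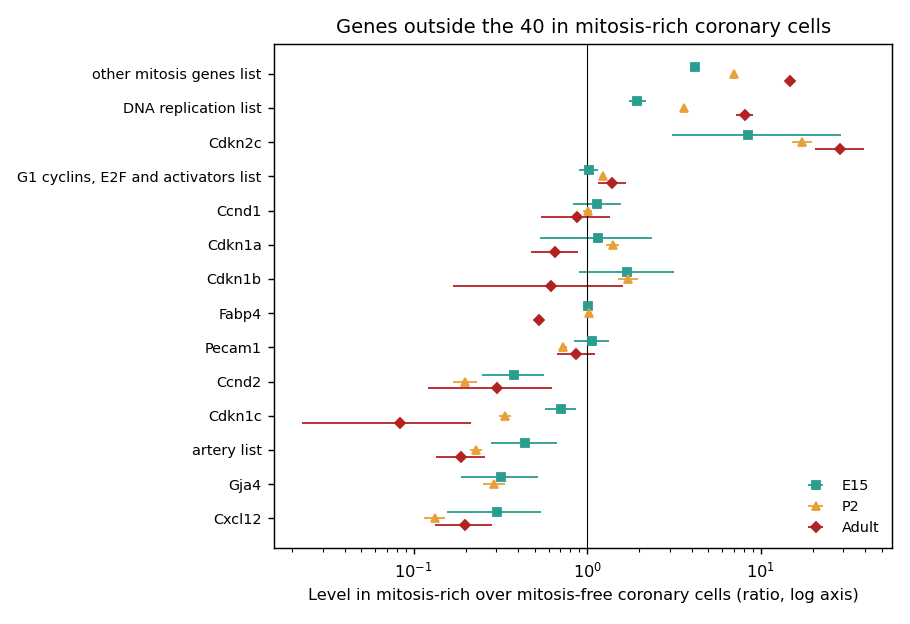
Ratio of the level in mitosis-rich to that in mitosis-free coronary cells (log axis) for gene lists and genes outside the 40, at E15, P2 and in the adult (adult cells with at least 3 macrophage UMIs left out), with exact 95% intervals for counting error only. Cdkn2c lies right of 1, at 17.2 at P2, and Cdkn1c, Ccnd2 and the artery markers lie left of it, at 0.335, 0.198 and 0.228.

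Coronary cells with a UMI of Cxcr4, the receptor of Cxcl12, were compared with those without. At E15 the mitosis sum was 1687 CPM in 69 such cells and 2981 in the others, a ratio of 0.566 (0.481 to 0.662), and 0.448 without the cell with the most mitosis UMIs. At P2 the ratio was 0.922 (0.880 to 0.965; 120 cells), but among coronary cells outside the artery rule it was 1.21 (1.15 to 1.28; 65 cells), so its direction turned with the cells compared. In the adult it was 1.80 (1.49 to 2.15; 76 cells), but 1 cell held 65 of the 124 UMIs, and without it the ratio was 0.926 (0.703 to 1.20). The adult cell with 65 UMIs was 1 of 3 Cxcr4 cells with at least 3 macrophage UMIs. Without all cells with so many macrophage UMIs the adult ratio was 0.955 (0.720 to 1.24). At E12 there was 1 coronary cell with a Cxcr4 UMI.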

How the data were processed

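RNA was measured with 10x Genomics v2 3' libraries, 1 per stage, from sorted cardiac cells. The authors mapped reads with Cell Ranger 2.2 to mm10, per the submitters' processing notes, and deposited raw UMI counts, as whole numbers for each gene in each barcode. The E12 matrix lists every barcode, so barcodes with at least 452 UMIs were taken as cells (88.7% of its UMIs); the other 3 list called cells. Cells of the E12, E15, P2 and adult libraries totalled 8122358, 7079759, 29645059 and 7650091 UMIs. Libraries shared 25 to 60 cell barcodes per pair. A cell could belong to several classes, and 1447, 1519, 149 and 48 cells to none of them.

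UMIs were summed per class and divided by all UMIs of the class (CPM). Sums have exact Poisson, ratios exact conditional binomial and shares exact Clopper-Pearson 95% intervals, for counting error only. With 1 library per stage there was no test and no p-value. A count of 0 was given a floor of 3 counts. Thinning drew 500 UMIs per cell without replacement and left out 83 E12 and 364 E15 cells with fewer. A 2-fold call needed a mean of 5 CPM over the stages or, between classes of a stage, over both classes. Doublets were scored with a Scrublet routine at 0.8% per 1000 cells (limit 0.15) and removed only in an alternative. Scripts were checked on simulated data.

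The members, lists and class rules were chosen with earlier results of these data known. Genes named outside the 40 were drawn from the 4 most counted of each list, the cell cycle inhibitors, the markers of the class rules, and the 10 non-members with the highest lowest-of-3-stages ratio among genes with at least 50 UMIs per stage, of which 1 is not reported here. Cxcr4 was named for its own comparison and Cks1brt as a copy of Cks1b, and Hjurp, Pttg1 and Gja4 were named after their values were seen. Values were computed in Python 3.11.15 with numpy 2.4.6, scipy 1.17.1, pandas 2.3.3 and scanpy 1.11.5, and drawn with matplotlib 3.10.9. Promoter windows came from RefSeq. Alternatives changed the quality limits, doublets, class rules, depth, thresholds and genes summed.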

Additional observations from a re-analysis of the deposited data

Results flagged for a closer look

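The coronary and endocardial levels differed in their change between stages. From E12 to E15 the coronary ratio was 1.01 and the endocardial 0.679, and from E15 to P2 they were 1.03 and 0.671. Their intervals do not overlap, but these cover counting error only. With classes taken from thinned counts both coronary ratios also lay below 1, so the contrast depended on the class rule. The difference was not tested, since each stage was 1 library.

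The coronary level was 2.60 times the endocardial at P2 and 0.822 times in the adult, where the endocardial sum rested on 75 cells. The adult direction did not hold: the value was between 1.00 and 1.52 under 4 alternatives, and without the cell with the most mitosis UMIs in each class the levels were 455 CPM (coronary) and 367 CPM (endocardial). Cells of the artery rule stood at 1.11 times other coronary cells at E12 and 0.560 times at E15, while 257 of the 332 E12 cells and 41 of the 69 E15 cells had no endothelial UMI. Cells without endothelial UMIs stood at 1.10 times the endothelial at E12 and 0.941 times at E15, where classes taken from thinned counts gave 1.06. None of these differences between stages was tested.

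Coronary cells with a Cxcr4 UMI had 0.922 times the mitosis level of the others at P2 and 1.80 times in the adult. The P2 value was 1.21 among coronary cells outside the artery rule. The adult value was 0.926 without 1 cell, which had at least 3 macrophage UMIs. The difference between the stages was not tested.

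The E12 barcodes that were not taken as cells also held mitosis UMIs, at 2512 CPM (2398 to 2629) in barcodes under 100 UMIs and 2143 CPM (1982 to 2313) in those from 100 UMIs to the cutoff, against 2672 CPM in the cells. A barcode of 500 UMIs at the former level would hold a mean of 1.26 mitosis UMIs. The E12 endocardial level of 2527 CPM lay within the former interval. How much such UMIs add to the E12 levels and mitosis-rich shares was not tested.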

How the results depend on the processing

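Of 63 results, recomputed under 17 alternatives (14 planned and 3 added later), 334 of 555 values stayed within the counting interval of the reported value or, for counts, within 1.5 times it, 208 moved further and 13 changed direction. In coronary cells the adult level stayed between 0.113 and 0.174 times that of P2 under every alternative run. There 38 or 39 members were more than 2-fold lower where all 40 could be tested. The share over all genes was not counted under the alternatives, so the member counts given for them have no background. The coronary ratios E15 to E12 and P2 to E15 crossed 1 with the choice of cells and genes, so no order of those 3 stages is firm. The adult coronary over endocardial ratio changed direction under 4 alternatives. The cause of the shifts was not tested. No paired analysis was possible because each stage was 1 library and the stages share 1 replicate number. No replicate could be left out. Few mitosis UMIs limit the values of adult valve-rule (80), E12 valve-rule (90), adult endocardial (120), E15 artery-rule (179) and E12 coronary (701) cells.

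Within the upper UMI, gene and mitochondrial limits of the study's methods, the coronary levels for E15, P2 and adult were 2655, 2833 and 364 CPM, the endocardial levels for E12, E15, P2 and adult were 2429, 1530, 953 and 363 CPM and the coronary ratios E15 to E12, P2 to E15 and adult to P2 were 0.892, 1.07 and 0.129. There the endocardial ratios E15 to E12, P2 to E15 and adult to P2 were 0.630, 0.623 and 0.381, the coronary over endocardial ratios for P2 and adult were 2.97 and 1.00 and the artery-rule over other coronary ratios for P2 and adult were 0.522 and 0.536. There the valve-rule over other endocardial ratio for adult was 0.533, the Cxcr4 ratio for adult was 1.26 and coronary members past the fold numbered 1 higher in E15 against E12 and 3 lower in E15 against E12. There endocardial members past the fold numbered 10 lower in E15 against E12, 1 higher in adult against P2 and 5 lower in adult against P2. With likely doublets removed, the coronary levels for E15 and P2 were 3065 and 2958 CPM, the endocardial level for P2 was 990.0 CPM and the coronary ratio P2 to E15 was 0.965. There the endocardial ratio P2 to E15 was 0.581, the coronary over endocardial ratios for E15 and P2 were 1.80 and 2.99 and the artery-rule over other coronary ratio for P2 was 0.584. With classes taken from thinned counts, the coronary levels for E15, P2 and adult were 2528, 2383 and 358 CPM, the endocardial levels for E12, E15, P2 and adult were 1766, 1182, 894 and 280.0 CPM and the coronary ratios E15 to E12, P2 to E15 and adult to P2 were 0.815, 0.943 and 0.1503. There the endocardial ratios P2 to E15 and adult to P2 were 0.757 and 0.313, the coronary over endocardial ratios for E12, E15 and adult were 1.76, 2.14 and 1.28 and the artery-rule over other coronary ratios for E15, P2 and adult were 0.197, 0.219 and 0.627. There the valve-rule over other endocardial ratios for P2 and adult were 0.781 and 0, the non-endothelial over endothelial ratios for E15, P2 and adult were 1.06, 1.11 and 1.40 and coronary members past the fold numbered 1 higher in E15 against E12 and 11 lower in E15 against E12. There endocardial members past the fold numbered 10 lower in E15 against E12, 2 higher in P2 against E15, 1 higher in adult against P2 and 0 lower in adult against P2. With 1 class per cell and an endothelial UMI needed, the coronary levels for P2 and adult were 3279 and 569 CPM, the endocardial levels for P2 and adult were 1019 and 374 CPM and the coronary ratios P2 to E15 and adult to P2 were 1.10 and 0.174. There the endocardial ratios P2 to E15 and adult to P2 were 0.583 and 0.367, the coronary over endocardial ratios for P2 and adult were 3.22 and 1.52 and the artery-rule over other coronary ratios for E15 and P2 were 0.441 and 0.590. There the Cxcr4 ratio for P2 was 1.16. With mitochondrial, ribosomal and hemoglobin UMIs left out of the totals, the coronary levels for E12, E15, P2 and adult were 4449, 4327, 3725 and 567 CPM, the endocardial levels for E12, E15, P2 and adult were 3871, 2518, 1457 and 716 CPM and the coronary ratios P2 to E15 and adult to P2 were 0.861 and 0.152. There the endocardial ratios E15 to E12 and P2 to E15 were 0.651 and 0.579 and coronary members past the fold numbered 0 higher in P2 against E15. Without Cks1b, Cks2 and Bub3, the 3 members with the most UMIs, the coronary levels for E12, E15, P2 and adult were 2046, 2202, 2367 and 307 CPM, the endocardial levels for E12, E15, P2 and adult were 1913, 1242, 819 and 412 CPM and the coronary ratios P2 to E15 and adult to P2 were 1.07 and 0.130. There the endocardial ratio E15 to E12 was 0.650, the coronary over endocardial ratios for E15 and P2 were 1.77 and 2.89 and the artery-rule over other coronary ratios for P2 and adult were 0.607 and 0.587. Without Bub3 and Smc4, a choice made after seeing the data, the coronary levels for E12, E15, P2 and adult were 2651, 2686, 2645 and 300.1 CPM, the endocardial levels for E12, E15, P2 and adult were 2295, 1489, 843 and 235 CPM and the coronary ratios P2 to E15 and adult to P2 were 0.985 and 0.113. There the endocardial ratios E15 to E12, P2 to E15 and adult to P2 were 0.649, 0.566 and 0.278, the coronary over endocardial ratios for E15, P2 and adult were 1.80, 3.14 and 1.28 and the artery-rule over other coronary ratios for P2 and adult were 0.614 and 0.575. With E12 barcodes of at least 1000 UMIs, the endocardial level for E12 was 2722 CPM, the endocardial ratio E15 to E12 was 0.631 and the endocardial mitosis-rich share for E12 was 15.03%. Without the cell with the most mitosis UMIs, also chosen after seeing the data, the coronary level for adult was 455 CPM, the endocardial levels for P2 and adult were 1071 and 367 CPM and the Cxcr4 ratios for E15, P2 and adult were 0.448, 0.820 and 0.926. Without cells with at least 3 macrophage UMIs, likewise added later, the Cxcr4 ratio for adult was 0.955. With a cut of 2 mitosis UMIs in 500, the coronary mitosis-rich shares for E12, E15, P2 and adult were 31.9%, 27.9%, 18.04% and 1.55% and the endocardial mitosis-rich shares for E12, E15 and P2 were 21.5%, 11.5% and 6.65%. With a cut of 5 UMIs, the coronary mitosis-rich shares for E12, E15 and P2 were 3.54%, 7.66% and 8.38% and the endocardial mitosis-rich shares for E12, E15 and P2 were 5.94%, 3.92% and 1.39%. With another random draw, the endocardial mitosis-rich share for E12 was 14.4%. With genes of at least 20 CPM, coronary members past the fold numbered 0 lower in E15 against E12 and 1 higher in P2 against E15 and endocardial members past the fold numbered 3 lower in E15 against E12 and 7 lower in P2 against E15. At a 3-fold difference, coronary members past the fold numbered 0 higher in E15 against E12, 0 lower in E15 against E12 and 0 higher in P2 against E15 and endocardial members past the fold numbered 2 lower in E15 against E12 and 3 lower in P2 against E15.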
